A study of Mus musculus with 28 samples.

Results

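The nuclear-encoded subunits of respiratory chain complexes I to V were followed in mouse dendritic cells after lipopolysaccharide (LPS) and read beside ribosome footprints of resting cells. Members were the genes of the RNA table with a name beginning Nduf (other than Ndufa4), Uqcr or Atp5, the Sdha to Sdhd genes, Cyc1, Cycs and the Cox4 to Cox8 families. The rule matched 58 of 3147 genes in the RNA table and 77 of 6250 genes in the footprint table. Among those with RNA values 55 were subunits, with 25 in complex I, 2 in complex II, 9 in complex III, 8 in complex IV and 11 in complex V. The other 3 were Cycs, the mobile electron carrier, Ndufaf2;mimitin, an assembly factor of complex I, and Cox4nb;COX4AL, which takes its name from its neighbour Cox4i1 and is not a subunit. These 3 are given apart, and all counts below are over the 55 subunits. All 58 passed the filter on low values.

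The cells were dendritic cells grown with GM-CSF from bone marrow of female C57BL/6J mice aged 6 to 8 weeks. On culture day 9 they received LPS at 100 ng per ml or a mock treatment without stimulus, and every culture of the time course was moved to heavy SILAC medium at time 0. Polyadenylated RNA came from LPS and mock cells at 1 h, 2 h, 4 h, 6 h, 9 h and 12 h and from cells at 0 h, with 2 libraries in each of the 13 groups. Ribosome footprints came from 2 libraries of unstimulated cells treated with cycloheximide. All values were in TPM, a relative transcript abundance, which for RNA corrects for transcript length and gives each library the same total, so sequencing depth is unknown. The labels do not say whether the 2 libraries of a group were separate cultures, and p-values here speak only of the spread between such libraries, which could be technical. In such bulk samples fewer cells of a type and less RNA per cell cannot be told apart.

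The respiratory chain sits in the inner mitochondrial membrane. Complex I takes electrons from NADH and complex II takes them from succinate, and both pass them to ubiquinone. Complex III moves them on to cytochrome c, complex IV passes them to oxygen, and complex V, the ATP synthase, uses the resulting proton gradient to make ATP. Dendritic cells stimulated through Tlr4 are known to raise glycolysis and, over many hours, to lower mitochondrial respiration.

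Subunit RNA was lower in LPS cells than in mock cells at late times, and the lowest median was that of complex I. The late effect is the mean over 6 h, 9 h and 12 h of the difference between LPS and mock in log2 of TPM plus 1. Calls used limma and a Benjamini-Hochberg adjusted p under 0.05, adjusted over all genes. In the main fit, without a replicate block, 43 of 55 subunits fell late and 0 rose. The share of 78.2% stood against 47.7% of all genes that fell. With the replicate number as a block, Uqcrfs1 was called as higher and more subunits as lower, as given below. The median late log2 fold change was -0.68 over the subunits and -0.43 over all genes. Because the median of all genes was itself below 0, each count is also given after median-ratio rescaling of the libraries, which brought that median to -0.03. After rescaling 17 subunits fell and 2 rose, beside 25.9% of all genes that fell and 26.2% that rose, and the median subunit stood at -0.27. The difference between the median subunit and the median gene was -0.25 on deposited values and -0.24 after rescaling. Rescaling divides each library by a single factor and moves nearly all genes alike, so it could hardly change this difference.

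Subunits had short annotated transcripts, with a median length of 651 bases against 1975 bases for all genes. Each gene was given the median over its annotated protein-coding transcripts, which need not be the length of the transcript measured here. With the dependence of level on length and GC content taken out of every library, 12 subunits fell and 2 rose, beside 30.0% of all genes that fell. The median of the subunits was then -0.20 against -0.12 for all genes. Across genes the late effect had a Spearman correlation of 0.11 with length and -0.16 with GC content, over 3122 genes that are not independent of each other.

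In the median over subunits, the time course had a first low point at 1 h and then widened from 6 h to 12 h. The median log2 fold change of the subunits was -0.46 at 1 h, -0.27 at 2 h, -0.40 at 4 h, -0.49 at 6 h, -0.76 at 9 h and -0.88 at 12 h. The median of all genes was -0.05 at 1 h, -0.16 at 2 h, -0.46 at 4 h, and then -0.44, -0.44 and -0.39 at 6 h, 9 h and 12 h. Thus 52 of 55 subunits lay below the median gene at 1 h, 22 at 4 h, 33 at 6 h, 47 at 9 h and 51 at 12 h. From 1 h to 2 h the summed TPM of the subunits fell in LPS replicate 1 (31946 to 29012) and rose in LPS replicate 2 (27503 to 30148). The mock sums went from 39376 to 37073 in replicate 1 and from 36153 to 35335 in replicate 2. In these sums the recovery at 2 h was therefore seen in replicate 2 only.

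Counts of calls were lowest at 2 h and highest at 12 h. At 1 h 3 subunits fell, beside 0.794% of all genes, and at 2 h 1 fell, beside 8.04%. At 4 h 8 fell, beside 29.2%, at 6 h 15 fell, beside 30.0%, and at 9 h 24 fell, beside 30.0%. At 12 h 34 of 55 fell, beside 26.8% of all genes. Leaving out any 1 library of the hour gave 0 calls at 2 h and 4 or 5 at 4 h. At 6 h 9 and 8 were left without LPS replicates 1 and 2, at 9 h 12 and 15 without mock replicates 1 and 2, and at 12 h 19 without mock replicate 1 and 22 without LPS replicate 1. On deposited values 0 subunits rose at each of the 6 times, beside 3.27%, 6.39%, 8.74%, 11.2%, 10.1% and 10.0% of all genes from 1 h to 12 h. After rescaling 3 fell at 1 h, beside 1.05%, 0 at 2 h, beside 5.21%, and 0 at 4 h, beside 12.8%. Then 3 fell at 6 h, beside 14.7%, 7 at 9 h, beside 12.8%, and 12 at 12 h, beside 13.9%, and Cox6c and Uqcrfs1 rose at 6 h. These were the 2 subunits that rose at any single time after rescaling, where 3.53%, 8.04%, 14.1%, 18.0%, 16.2% and 16.7% of all genes rose from 1 h to 12 h. The joint F test over the 6 times called 33 subunits, beside 57.2% of all genes, and 10 after rescaling, beside 45.4%.

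Same-numbered LPS and mock libraries deviated together, and a fit with the replicate number as a block called more subunits and more of all genes. With the block 16 subunits fell at 1 h, beside 6.10% of all genes, 9 at 2 h, beside 16.7%, and 24 at 4 h, beside 44.9%. Then 29 fell at 6 h, beside 42.9%, and 43 at 9 h, beside 43.3%, and the F test called 50, beside 80.5%. With length and GC trends removed, and no block, 1 subunit fell at 1 h, beside 1.47%, 0 at 2 h, beside 5.19%, and 1 at 4 h, beside 14.9%. Of the later times 6 h had 4, beside 17.8%, 9 h had 4, beside 16.4%, and 12 h had 7, beside 15.6%.

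**Figure D1:**
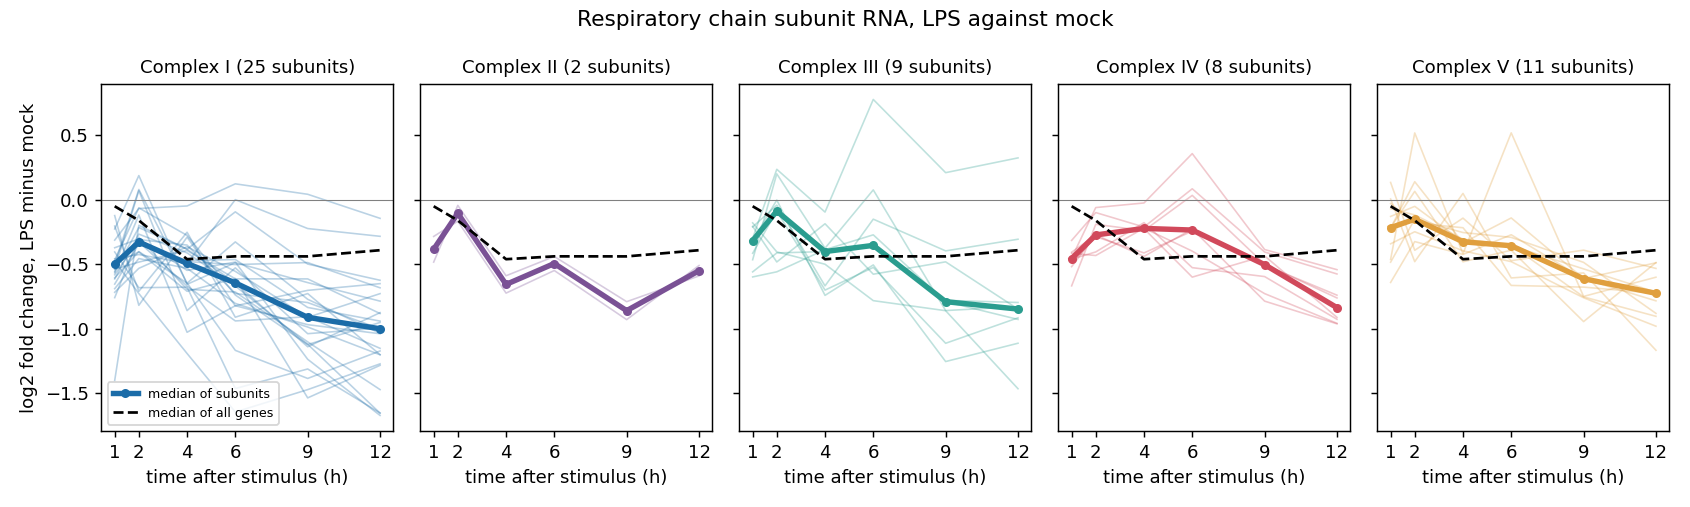
Log2 fold change of LPS minus mock (vertical axis, log2 of TPM plus 1) against hours after the stimulus, by complex. Thin lines are single subunits, the thick line is their median and the dashed line is the median of all genes; complex I ends lowest, and the median of all 55 subunits is -0.88 at 12 h against -0.39 for all genes.

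The summed level of the 55 subunits at 12 h was 21505 and 23578 TPM in the 2 LPS libraries, against 40953 and 39360 TPM in the 2 mock libraries. For complex I the sums were 3860 and 4467 TPM in LPS cells and 8271 and 8456 TPM in mock cells. The groups did not overlap in either sum. Between mock cells at late times and 0 h, limma called 0 of the 55 subunits, beside 0.00% of all genes. At an unadjusted p under 0.05 this contrast held 0 subunits and 89 genes.

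Separation was also read library by library. All 6 late LPS libraries lay below all 6 late mock libraries for 25 of 55 subunits, beside 30.2% of all genes. Of these 25, 17 were in complex I, 0 in complex II, 2 in complex III, 3 in complex IV and 3 in complex V. Both LPS libraries lay below both mock libraries of the same hour at all 6 times for 10 subunits, beside 10.3% of all genes. At 6 h, 9 h and 12 h this held for 27, beside 34.7%.

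The late effect is given next for each complex, beside 47.7% of all genes that fell and 15.5% that rose. Complex I had a median late log2 fold change of -0.89 (range -1.48 to 0.01), and 22 of its 25 subunits fell. Complex II stood at -0.63 with 2 of 2 lower, and complex III at -0.64 (range -1.04 to 0.44) with 6 of 9 lower. Complex IV stood at -0.57 (range -0.69 to -0.19) with 6 of 8 lower, and complex V at -0.56 (range -0.78 to -0.28) with 7 of 11 lower. Complex I thus lay -0.45 from the median gene and the others -0.20, -0.21, -0.14 and -0.12 for complexes II, III, IV and V. With the replicate number as a block, Uqcrc1, Cox7a2, Atp5a1, Atp5b and Atp5c1 were also called as lower, and Uqcrfs1 as higher. Complex I gained no call, so the lead of complex I in the share called depends on the fit. The medians describe the lists, and no test between complexes was made.

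Rescaling left few calls outside complex I, beside 25.9% of all genes that fell and 26.2% that rose. It moves nearly all genes alike, so the order of the complexes could hardly change. Of complex I 12 subunits fell and 1 rose, with a median of -0.49. In complex II 0 fell (median -0.23), in complex III 2 fell and 1 rose (-0.24), in complex IV 1 fell (-0.16) and in complex V 2 fell (-0.15). With length and GC trends removed the medians were -0.40, -0.24, -0.19, -0.07 and -0.15 for complexes I to V. Complex I then held 10 of the 12 subunits that fell, beside 30.0% of all genes.

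**Figure D2:**
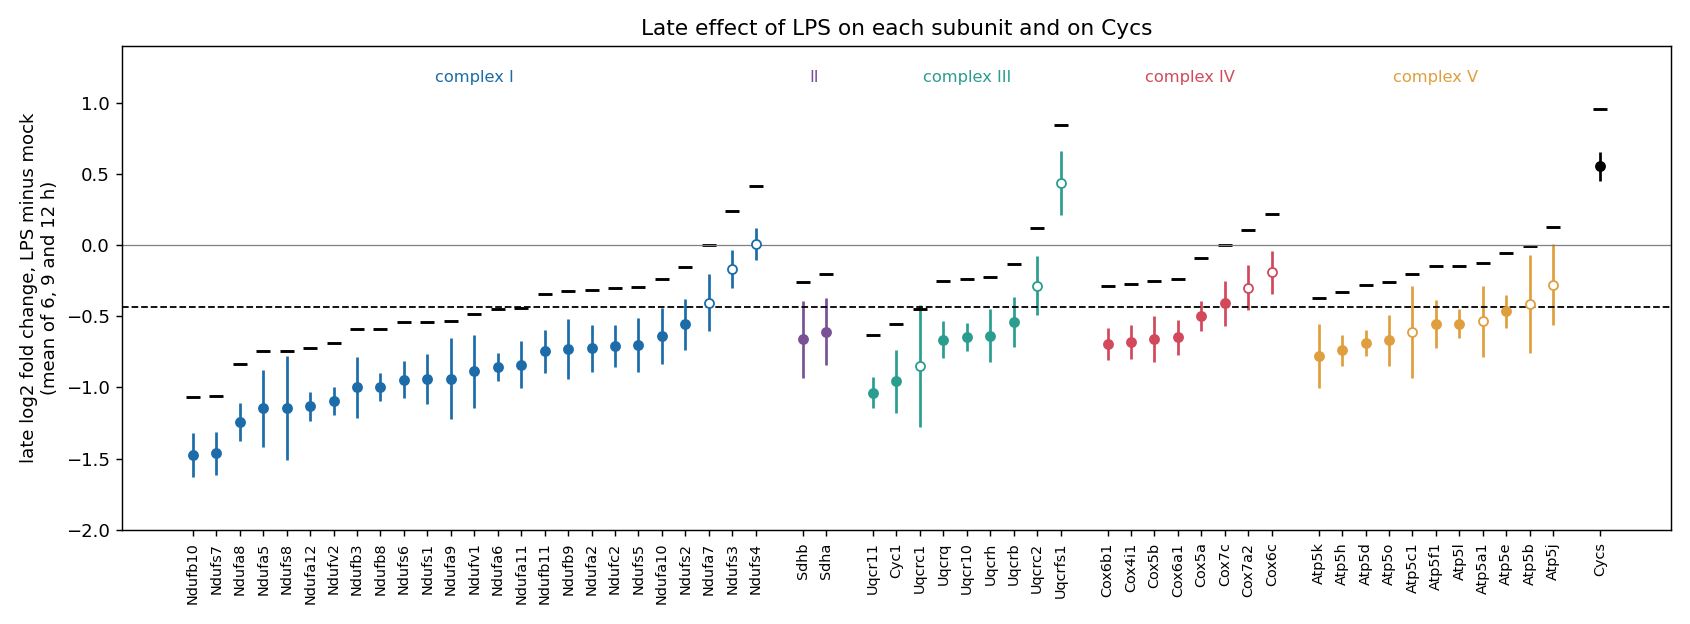
Late log2 fold change of LPS minus mock for each subunit and for Cycs (points, deposited values, bars are standard errors; filled points have adjusted p under 0.05). Short black bars give the same value after median-ratio rescaling and the dashed line marks the median of all genes, -0.43; the lowest points are Ndufb10 and Ndufs7 of complex I, and Uqcrfs1 and Cycs lie above 0.

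Within complex I the lowest members came from both arms of the enzyme. Ndufb10, an accessory subunit of the membrane arm, had 154 and 212 TPM in LPS cells at 12 h, against 542 and 601 TPM in mock cells. At 6 h it had 197 and 229 TPM in LPS cells and 503 and 686 TPM in mock cells. All 6 late LPS libraries, from 154 to 300 TPM (median 205), lay below the 6 mock libraries, from 503 to 686 TPM (median 571). Its late log2 fold change was -1.48 ± 0.16 (SE; limma, adjusted p 4.42e-07) and -1.07 after rescaling.

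Ndufs7, an iron-sulfur subunit next to the ubiquinone site, had 120 and 123 TPM in LPS cells at 6 h, against 317 and 460 TPM in mock cells. Its late libraries ran from 115 to 227 TPM (median 122) in LPS cells and from 317 to 460 TPM (median 400) in mock cells. The 2 groups did not overlap, and the late log2 fold change was -1.46 ± 0.15 (limma, adjusted p 2.9e-07). Ndufa8, an accessory subunit of the membrane arm, ran from 116 to 159 TPM (median 133) in late LPS libraries and from 258 to 357 TPM (median 335) in late mock libraries. The late log2 fold change of Ndufa8 was -1.24 ± 0.13 (limma, adjusted p 5.69e-07), and its groups also did not overlap.

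Ndufb8, another membrane-arm subunit and the most abundant member of complex I, ran from 353 to 522 TPM in late LPS libraries (median 418) and from 801 to 921 TPM in late mock libraries (median 867). Its late value was -0.997 ± 0.10 in log2 (limma, adjusted p 2.23e-07). The membrane arm had 10 of 10 subunits lower, with a median of -0.79, and the peripheral arm, which holds the NADH site and the iron-sulfur chain, had 12 of 15 lower with a median of -0.94. After rescaling 5 of 10 and 7 of 15 fell. Of all genes 47.7% fell late on deposited values and 25.9% after rescaling.

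The subunits that fell late after rescaling numbered 17, beside 25.9% of all genes, and 12 of them belonged to complex I. All 17 had also fallen on deposited values, which adds no support because rescaling moved late values upward. They were Ndufa5, Ndufa6, Ndufa8, Ndufa11, Ndufa12, Ndufb3, Ndufb8, Ndufb10, Ndufs1, Ndufs6, Ndufs7 and Ndufv2. The rest were Uqcr;Uqcr11 and Cyc1 of complex III, Cox6b1 of complex IV, and Atp5h and Atp5d of complex V. With length and GC trends removed 12 of the 17 still fell, and Ndufa5, Ndufa11, Cyc1, Cox6b1 and Atp5d did not pass (adjusted p 0.0527, 0.225, 0.287, 0.118 and 0.597). Atp5d then stood at -0.07. Those outside the naming rule, such as Ndufa12, were named here after their values were seen. Ndufa12, an accessory subunit of the peripheral arm, had a late log2 fold change of -1.13 ± 0.10 and -1.67 at 12 h (limma, adjusted p 6.47e-08 late).

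Ndufs4 and Ndufs3 stood highest in complex I. Ndufs4, an accessory subunit of the peripheral arm whose loss in mice lowers complex I, had 153 and 160 TPM in LPS cells at 6 h, against 141 and 145 TPM in mock cells. At 12 h it had 134 and 173 TPM in LPS cells and 160 and 177 TPM in mock cells. The late libraries of the groups overlapped. Its late log2 fold change was 0.01 ± 0.11 (limma, adjusted p 0.956). After rescaling it was 0.41 and called as higher (limma, adjusted p 0.0109), as were 26.2% of all genes. With length and GC trends removed Ndufs4 stood at 0.23 and was not called (limma, adjusted p 0.0824). Ndufs3, a core subunit of the peripheral arm, ran from 131 to 167 TPM in late LPS libraries and from 136 to 201 TPM in late mock libraries, with a late log2 fold change of -0.17 ± 0.13 (limma, adjusted p 0.281). The sign of Ndufs3 turned to 0.24 after rescaling (adjusted p 0.121) and to 0.32, called as higher, with length and GC trends removed (adjusted p 0.00963).

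**Figure D3:**
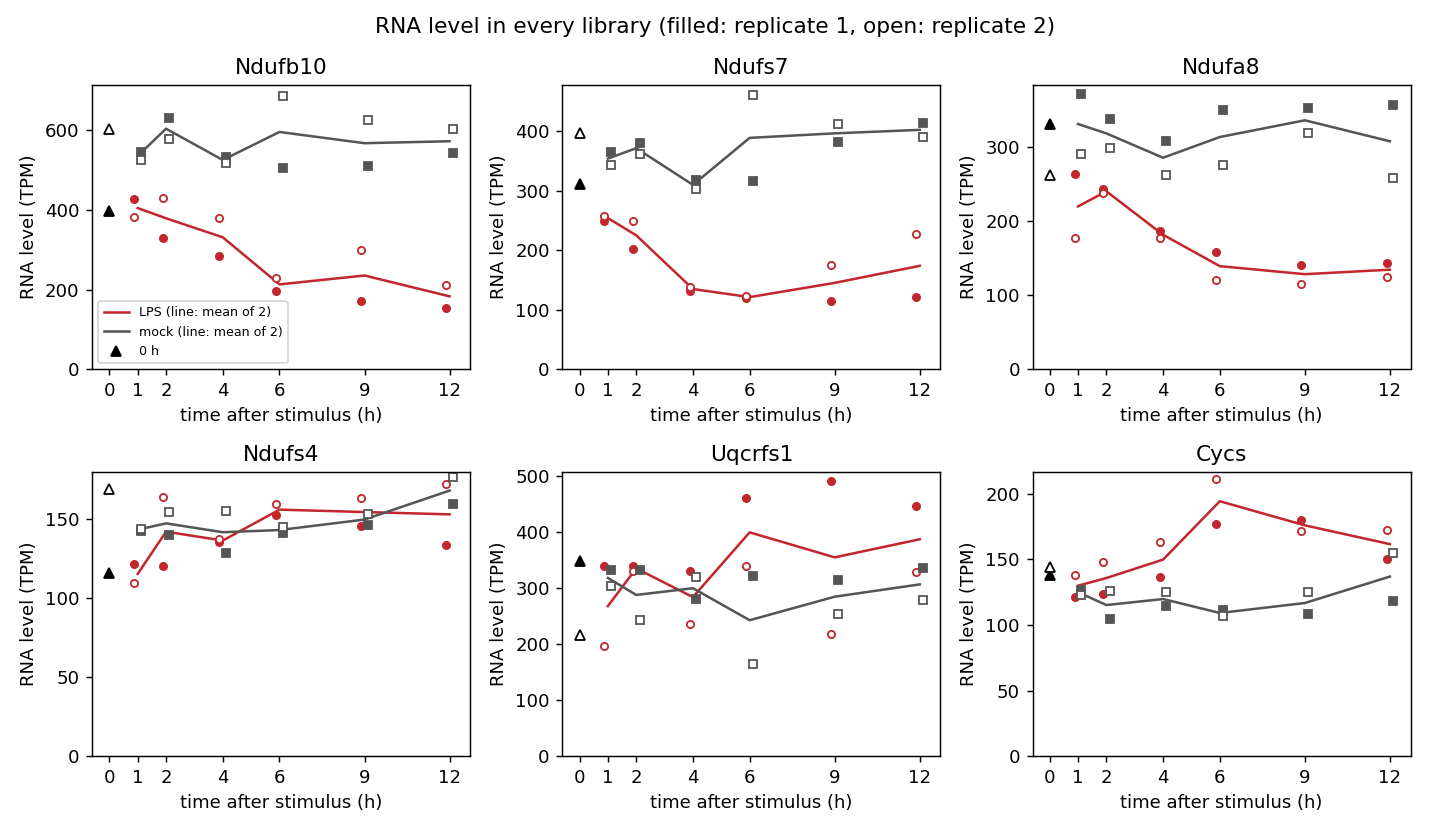
RNA level in TPM in every library against hours after the stimulus, for 3 of the lowest complex I subunits, for Ndufs4, for Uqcrfs1 and for Cycs. LPS libraries (red circles) and mock libraries (grey squares) are joined by the mean of 2, with 0 h as triangles; all late LPS libraries of Ndufb10, Ndufs7 and Ndufa8 lie below all late mock libraries, while those of Ndufs4 and Uqcrfs1 overlap.

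Promoters of the members were read because nuclear-encoded respiratory genes are known to share binding motifs for the factors NRF1, the ETS factor GABP and YY1. RefSeq windows of GRCm38.p6, from 250 bases before to 50 bases after the start, were found for 43 of the 55 subunits. Each sequence runs 5′ to 3′ along the gene and ends at the base before the start, 100 bases in all, with matches to the motifs in capitals. The set holds the 3 lowest and the highest late members of complex I, the highest of complex III, Cycs, and 3 further members called late that hold a match.
Ndufb10 (chr17:24724424-24724523, minus strand): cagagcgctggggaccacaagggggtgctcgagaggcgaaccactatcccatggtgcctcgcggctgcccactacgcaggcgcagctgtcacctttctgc
Ndufs7 (chr10:80249349-80249448, plus strand): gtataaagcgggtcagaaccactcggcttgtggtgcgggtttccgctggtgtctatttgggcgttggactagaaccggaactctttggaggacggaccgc
Ndufa8 (chr2:36049339-36049438, minus strand): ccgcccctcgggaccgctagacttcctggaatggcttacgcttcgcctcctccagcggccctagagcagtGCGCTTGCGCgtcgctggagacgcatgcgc
Ndufs4 (chr13:114388095-114388194, minus strand): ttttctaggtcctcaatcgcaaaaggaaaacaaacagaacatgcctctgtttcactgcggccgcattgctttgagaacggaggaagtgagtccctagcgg
Uqcrfs1 (chr13:30545317-30545416, minus strand): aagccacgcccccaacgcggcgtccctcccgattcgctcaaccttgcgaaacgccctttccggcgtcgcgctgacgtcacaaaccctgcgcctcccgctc
Cycs (chr6:50566570-50566669, minus strand): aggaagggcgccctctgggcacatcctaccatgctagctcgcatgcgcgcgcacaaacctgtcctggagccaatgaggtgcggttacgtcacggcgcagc
Ndufa11 (chr17:56717662-56717761, plus strand): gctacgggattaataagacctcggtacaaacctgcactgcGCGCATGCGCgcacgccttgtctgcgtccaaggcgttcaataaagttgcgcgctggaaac
Uqcr11 (chr10:80406822-80406921, minus strand): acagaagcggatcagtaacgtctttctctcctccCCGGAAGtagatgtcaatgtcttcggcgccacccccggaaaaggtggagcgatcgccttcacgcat
Atp5h (chr11:115419920-115420019, minus strand): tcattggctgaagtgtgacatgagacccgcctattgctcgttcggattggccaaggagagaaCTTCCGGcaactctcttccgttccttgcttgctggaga

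The NRF1 motif is the run in capitals in Ndufa11, read with any base at the sixth place, and the run in Ndufa8 matches it on the opposite strand, as the run in Atp5h does the ETS letters. Searched on both strands of the 300-base windows, it matched in 13 of 43 subunits (30.2%), against 13.6% of genes of the RNA table and 5.19% of all genes with a window. The YY1 letters AANATGGCG matched in 8 (18.6%), against 7.90% and 2.76%. The ETS letters CCGGAAG matched in 12 (27.9%), against 22.4% and 9.93%. Of the 21 complex I windows 6 held NRF1, 6 YY1 and 2 ETS, and of the 9 complex V windows 4 held NRF1, 2 YY1 and 5 ETS. The TATA letters TATAAA matched in 3 subunits (6.98%), against 8.35% of genes of the RNA table.

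Within the printed windows the match of Ndufa11 began 60 bases before the start and that of Ndufa8 began 30 bases before it. The ETS letters began 66 bases before the start of Uqcr11 and 38 bases before that of Atp5h. Ndufs7 and Ndufs4, far apart in their late effect, each held the YY1 letters after the start, beyond the printed bases. A match describes letters only and shows no binding.

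Complex II had both of its measured subunits lower. Sdha, the flavoprotein that oxidises succinate, ran from 72.0 to 160 TPM (median 130) in late LPS libraries and from 139 to 219 TPM (median 191) in late mock libraries. Sdhb, the iron-sulfur subunit, ran from 89.5 to 213 TPM (median 140) in late LPS libraries and from 129 to 314 TPM (median 232) in late mock libraries. Both overlapped between groups. Their late log2 fold changes were -0.61 ± 0.24 and -0.66 ± 0.27 (limma, adjusted p 0.0337 and 0.0416), and after rescaling neither was called (adjusted p 0.491 and 0.439).

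In complex III the small subunit Uqcr;Uqcr11 had 277 and 333 TPM in LPS cells at 12 h, against 781 and 904 TPM in mock cells. Its late groups did not overlap, and its late log2 fold change was -1.04 ± 0.11 (limma, adjusted p 2.9e-07). Cyc1, which carries the haem that passes electrons to cytochrome c, had 92.7 and 63.9 TPM in LPS cells at 12 h, against 194 and 145 TPM in mock cells. For Cyc1 the late log2 fold change was -0.96 ± 0.22 (limma, adjusted p 0.00121).

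The core proteins and the hinge protein followed with more spread. Uqcrc1 had a late log2 fold change of -0.85 ± 0.43 and Uqcrc2 of -0.28 ± 0.21, and neither passed the test (limma, adjusted p 0.0927 and 0.236). With the replicate block the standard error of Uqcrc1 was 0.17 and Uqcrc1 was called (limma, adjusted p 0.000185), while Uqcrc2 was not (adjusted p 0.0523). Uqcrh, the most abundant member of complex III, ran from 916 to 1966 TPM in late LPS libraries and from 1730 to 2480 TPM in late mock libraries, with a late log2 fold change of -0.64 ± 0.18 (limma, adjusted p 0.00656).

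Uqcrfs1, the Rieske iron-sulfur protein, was the subunit with the highest late value. At 6 h it had 460 and 339 TPM in LPS cells, against 321 and 165 TPM in mock cells. At 12 h it had 446 and 328 TPM in LPS cells, against 335 and 278 TPM in mock cells. The LPS values of 6 h lay above the mock values, while at 12 h the groups overlapped. The late log2 fold change of 0.44 ± 0.22 missed the test on deposited values (limma, adjusted p 0.0962) and passed it after rescaling at 0.85 (adjusted p 0.00321) and with the replicate block (adjusted p 0.00855).

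Complex IV held abundant transcripts with moderate falls. Cox4i1, its most abundant member, had 1166 and 1271 TPM in LPS cells at 12 h, against 2474 and 2165 TPM in mock cells, and its late groups did not overlap. In Cox4i1 the late log2 fold change was -0.68 ± 0.12 (limma, adjusted p 9.68e-05). Cox6b1, which lies at the dimer contact, stood at -0.69 ± 0.11 (limma, adjusted p 3.8e-05) and Cox5b at -0.66 ± 0.16 (limma, adjusted p 0.00208). Of these 3, Cox6b1 alone was called after rescaling, at -0.29 (adjusted p 0.0407).

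Cox7a2 and Cox6c stood highest in complex IV. Their late log2 fold changes were -0.30 ± 0.16 and -0.19 ± 0.15 (limma, adjusted p 0.106 and 0.278), and with the replicate block Cox7a2 was called as lower (adjusted p 0.0132). Both turned positive after rescaling, at 0.11 and 0.22, and with length and GC trends removed, at 0.20 and 0.23, without a call. Cox6c had 1591 and 1414 TPM in LPS cells at 6 h, against 1452 and 943 TPM in mock cells. At 12 h it had 1187 and 1114 TPM in LPS cells, against 1739 and 1613 TPM in mock cells, so the groups overlapped at 6 h and were apart at 12 h.

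In complex V the lowest members were Atp5k, Atp5h and Atp5d. Atp5k, subunit e, ran from 761 to 1661 TPM (median 1223) in late LPS libraries and from 1467 to 2628 TPM (median 2015) in late mock libraries. The late effect of Atp5k was -0.78 ± 0.22 (limma, adjusted p 0.00627). Atp5h, a peripheral stalk subunit, and Atp5d, the delta subunit of F1, stood at -0.74 ± 0.11 and -0.69 ± 0.09, and neither overlapped between late groups (limma, adjusted p 1.34e-05 and 6.48e-06).

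The catalytic head, F1, was set beside the membrane part and stalk. Of the 5 F1 subunits 2 fell, with a median of -0.54. Of the 6 membrane and stalk subunits 5 fell, with a median of -0.61, beside 47.7% of all genes that fell. The difference between these parts was not tested. Atp5b, the catalytic beta subunit, ran from 281 to 724 TPM in late LPS libraries and from 368 to 937 TPM in late mock libraries, with a late log2 fold change of -0.41 ± 0.34 (limma, adjusted p 0.299). With the replicate block Atp5b, Atp5a1 and Atp5c1 of F1 were called as lower too (adjusted p 0.00998, 1.19e-05 and 0.00121). Atp5j, coupling factor 6, stood at -0.28 ± 0.28 (adjusted p 0.399). Atp5e, the epsilon subunit and the most abundant of all 55, ran from 1570 to 2336 TPM in late LPS libraries and from 2318 to 2739 TPM in late mock libraries. The late effect of Atp5e was -0.46 ± 0.12 (limma, adjusted p 0.00234), close to the median gene.

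Cycs, cytochrome c, was the 1 of 58 members that rose late on deposited values without the replicate block, beside 15.5% of all genes that rose. It had 177 and 212 TPM in LPS cells at 6 h, against 112 and 107 TPM in mock cells. At 12 h it had 151 and 173 TPM in LPS cells and 119 and 155 TPM in mock cells. The groups were apart at 6 h and overlapped at 12 h. Its late log2 fold change was 0.55 ± 0.10 (limma, adjusted p 0.000207) and 0.96 after rescaling. At 6 h the log2 fold change was 0.82 ± 0.18 (limma, adjusted p 0.00163). Outside the respiratory chain cytochrome c is known for its release from mitochondria in apoptosis.

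Both other members that are not subunits fell. Ndufaf2;mimitin, a paralogue of Ndufa12 that acts in complex I assembly, had 11.5 and 10.7 TPM in LPS cells at 12 h, against 56.1 and 52.2 TPM in mock cells. The late effect of Ndufaf2 was -1.69 ± 0.21 (limma, adjusted p 2.61e-06). Cox4nb;COX4AL had 12.7 and 18.9 TPM in LPS cells at 12 h, against 32.0 and 39.0 TPM in mock cells, and a late log2 fold change of -1.08 ± 0.18 (limma, adjusted p 5.24e-05).

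The 3 subunits called at 1 h without the replicate block belonged to complex I. Ndufa7, an accessory subunit of complex I, had 262 and 95.4 TPM in LPS cells at 1 h, against 403 and 436 TPM in mock cells. Its log2 fold change at 1 h was -1.40 ± 0.35 (limma, adjusted p 0.0285), and its late value of -0.41 ± 0.20 did not pass (adjusted p 0.0869). Ndufv2, an iron-sulfur subunit of the NADH module, had 154 and 134 TPM in LPS cells at 1 h, against 238 and 251 TPM in mock cells, a log2 fold change of -0.76 ± 0.17 (limma, adjusted p 0.0164). Ndufb8 had 628 and 435 TPM in LPS cells at 1 h, against 857 and 828 TPM in mock cells, a log2 fold change of -0.69 ± 0.17 (limma, adjusted p 0.0311). These 3 were called at 1 h under both scalings, which adds little because rescaling hardly moved values at 1 h (Ndufb8 from -0.69 to -0.67). With length and GC trends removed 1 subunit fell at 1 h, beside 1.47% of all genes. Each comparison at 1 h rests on 2 libraries a group, and leaving out 1 library moved the count from 3 to between 0 and 9, the first without mock replicate 1 and the second without LPS replicate 1.

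The early effect, the mean over 1 h and 2 h, held 10 subunits that fell, beside 9.72% of all genes, and 4 after rescaling, beside 6.26%. In it 0 subunits rose under either scaling, beside 8.39% of all genes on deposited values and 9.95% after rescaling. The replicate block gave 26 lower, beside 19.4%, while removing length and GC trends left 1 lower, beside 8.36%. The late effect was lower than the early one in 8 subunits and higher in 0, beside 22.2% and 8.17% of all genes. Of the 8, 6 were in complex I, with Uqcr;Uqcr11 of complex III and Atp5d of complex V. After rescaling 1 was lower, Ndufa12, beside 10.5%, and 1 was higher, Ndufs3, beside 13.3%. With the replicate block 20 were lower, beside 37.2%, and with length and GC trends removed 3 were lower, beside 11.3%.

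The replicate numbers carried a difference of their own. Over the 13 groups 36 subunits were higher on average in replicate 1 and 19 in replicate 2, by -0.68 to 1.07 in log2. Across subunits the Spearman correlation of this difference with transcript length was 0.56, against -0.12 over all genes. The late effect was below 0 in both replicate numbers for 53 of 55 subunits (96.4%), against 68.1% of all genes. By complex, the median late effect was -0.87 in replicate 1 and -0.87 in replicate 2 for complex I, -0.56 and -0.71 for complex II, and -0.67 and -0.63 for complex III. For complex IV it was -0.61 and -0.51, and for complex V -0.62 and -0.57.

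All 10 measured positive controls of LPS stimulation rose late. Of the dendritic cell and macrophage markers 9 of 17 were in the table. Of these 3 fell late and 0 rose, beside 47.7% and 15.5% of all genes, and after rescaling 2 fell and 2 rose, beside 25.9% and 26.2%. Their summed level ran from 19161 to 58192 TPM over the LPS libraries and from 20102 to 61311 TPM over the mock libraries. Of the neutrophil markers 7 of 14 were in the table, 2 fell and 1 rose, and 1 fell and 1 rose after rescaling. Their sum ran from 1165 to 8678 TPM in LPS libraries and from 2492 to 11097 TPM in mock libraries. The part of these differences in the subunit results was not tested. Markers of lymphocytes and red cells were not analysed here.

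Footprints of resting cells were compared with RNA at 0 h to ask which subunits had more or fewer ribosomes per RNA. The ratio was footprint minus RNA in log2 of TPM plus 1, each library centred on its median gene, over 2896 genes in both tables. Of 55 subunits 2 were higher, beside 14.1% of all genes, and 4 were lower, beside 13.6%. At an unadjusted p under 0.05 the counts were 8 and 12, beside 24.9% and 21.0% of all genes. The median was -0.02 over subunits and 0.11 over all genes. By complex the medians were -0.26, 0.50, 0.03, -0.23 and 0.18 for complexes I to V.

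Ndufa11, an accessory subunit of the membrane arm, had 144 and 160 TPM of footprints, against 61.8 and 70.2 TPM of RNA. Its log2 ratio of 2.04 ± 0.24 was the highest of the subunits (limma, adjusted p 0.00703). Cox7a2 had 478 and 546 TPM of footprints, against 557 and 369 TPM of RNA, a log2 ratio of 1.02 ± 0.27 (limma, adjusted p 0.0382). In Ndufa11 footprints exceeded RNA in every library, while in Cox7a2 the deposited values overlapped and the centring set the ratio above 0.

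Uqcrh was lowest, with 209 and 235 TPM of footprints, against 1303 and 2315 TPM of RNA, a log2 ratio of -2.11 ± 0.35 (limma, adjusted p 0.0145). Ndufs5, a small complex I subunit, had 123 and 134 TPM of footprints, against 435 and 790 TPM of RNA, a log2 ratio of -1.33 ± 0.36 (limma, adjusted p 0.0412). Ndufb10 and Ndufb8 stood at -1.24 ± 0.31 and -1.01 ± 0.24 (limma, adjusted p 0.0333 and 0.0317). All 4 had fewer footprints than RNA in every library, but the deposited values of the 2 kinds are not on a common scale. Cox6b1 also had fewer, 985 and 826 TPM of footprints against 1680 and 1763 TPM of RNA, at a centred log2 ratio of -0.08. The comparison of deposited values thus adds nothing to these 4 calls. Cycs, at 295 and 348 TPM of footprints, against 138 and 144 TPM of RNA, was close to Ndufa11, with a log2 ratio of 2.03 ± 0.24 (limma, adjusted p 0.00703).

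These counts rest on 2 libraries of each kind. Without either footprint replicate the counts were 1 higher and 1 lower. Without 0 h replicate 1 they were 21 higher and 19 lower, and without 0 h replicate 2 they were 10 and 17. Whether the footprint values were divided by length is not given in the sources used here. Over 2876 genes the log2 ratio was higher by 0.05 per doubling of length, and over the subunits its Spearman correlation with length was 0.51.

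**Figure D4:**
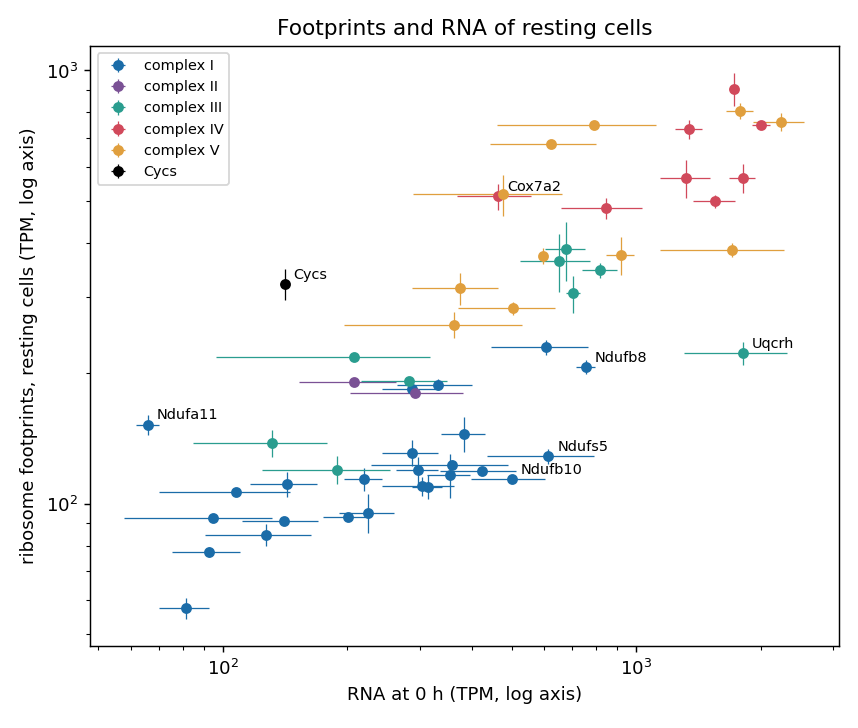
Footprints of resting cells (vertical axis) against RNA at 0 h (horizontal axis), both in TPM on log axes, for each subunit and Cycs, coloured by complex. Points are means of 2 libraries and bars span the 2 libraries; named points passed the test, with Ndufa11 and Cycs above the rest and Uqcrh below.

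Levels in resting cells differed by complex. The median footprint level was 121 TPM for complex I, 223 TPM for complex II, 222 TPM for complex III, 565 TPM for complex IV and 400 TPM for complex V. The median RNA level at 0 h was 287, 250, 650, 1446 and 621 TPM for complexes I to V. Complex I was lowest in footprints and complex II in RNA, and complex IV was highest in both. The footprint medians cover 36, 4, 9, 11 and 15 subunits, and the RNA medians 25, 2, 9, 8 and 11.

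The footprint table held 20 subunits that the RNA table did not. Sdhc and Sdhd, the membrane anchors of complex II, had 255 ± 11.9 and 315 ± 4.71 TPM (SD, n = 2). Atp5g1, Atp5g2 and Atp5g3, 3 genes for the same c subunit of the ATP synthase rotor, had 400 ± 33.2, 344 ± 46.0 and 937 ± 84.3 TPM. Their mature proteins are alike, and how reads were split among the 3 genes was not examined. Ndufv3 was the lowest subunit at 46.0 ± 2.46 TPM. The 24 listed mitochondrially encoded genes were not analysed here.

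Genes that work beside the chain were described with lists of their own. Of 18 measured genes of the citric acid cycle and pyruvate dehydrogenase 15 fell late and 0 rose (median -0.71), and 6 fell after rescaling. Of all genes 47.7% fell and 15.5% rose late, and after rescaling 25.9% fell and 26.2% rose, shares that stand beside each list here, and 6 of 18 lies near that after rescaling. Among the lowest were Idh3a at -2.06 ± 0.21, Fh1 at -1.90 ± 0.25 and Suclg2;Scs at -1.78 ± 0.22. Of 8 measured assembly factors of 49 listed, 5 fell and 0 rose (median -0.89). After rescaling 4 fell and 1 rose. Besides Ndufaf2 they included Lrpprc, which stabilises mitochondrial mRNAs, at -1.49 ± 0.12, and Ecsit, a complex I assembly factor also known from Toll-like receptor signalling, at -1.20 ± 0.30.

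Of 6 measured electron donors and coenzyme Q genes of 20 listed, 1 rose, Gpd2, the mitochondrial glycerol phosphate dehydrogenase, at 1.10 ± 0.19. In this list 2 fell (3 with the replicate block), Etfb at -1.57 ± 0.12 and Sqrdl at -0.44 ± 0.14, and after rescaling 2 rose and 1 fell. Of 10 measured inner membrane and ADP exchange genes of 15 listed, 7 fell and 1 rose, and after rescaling 3 fell and 1 rose. The prohibitins Phb2 and Phb stood at -1.30 ± 0.18 and -1.24 ± 0.13, and AK086522;Apool, a cristae protein, rose at 1.19 ± 0.25. Of 4 measured regulators of respiratory genes of 14 listed 0 rose and 0 fell, with the replicate block 1 rose and 2 fell, and after rescaling Gabpb1, a GABP subunit, rose at 0.68.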

How the data were processed

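The authors deposited both tables in TPM. RNA was aligned with Bowtie 0.12.7 and quantified with RSEM 1.2.3 on the mouse build mm9, both per the submitters' processing notes. These notes name TopHat2 and Bowtie2 for the footprints. They also hold RSEM 1.1117, and which step or samples used that version was not examined here. The footprint values were taken as TPM because each deposited column sums to 1000000. Each 0 h library is deposited under both arm names and was used once. The 4 h samples carry hour 5 in 1 label field, and 4 h was used.

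A minimum of 1 TPM in 2 or more libraries removed 0 of the 3147 genes. Log2 of TPM plus 1 was modelled in limma 3.58.1 (R 4.3.3) with 13 group means, 13 residual degrees of freedom, a variance trend and Benjamini-Hochberg adjustment over all genes. This scale understates the change of low genes. TPM gives no counting error. For 99.21% of genes transcript length and GC content were taken from GENCODE M21 (GRCm38), newer than the authors' build. Both were medians over the protein-coding transcripts of a gene. Promoters came from RefSeq GRCm38.p6. The steps were tested on simulated data with independent noise in each library. The simulation held no deviation shared by replicate number, so it does not speak to that feature of the data. Plots used Python 3.11.15 and matplotlib 3.10.9.

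Named members were, per complex, the 3 lowest and 2 highest late effects, the most abundant, the extreme footprint ratios, those called at 1 h or higher late, paralogues and Cycs, and not all are printed. Listed genes are named up to 3 each way. Whether replicate numbers pair the libraries is not given in the labels. For the block they were taken to pair them because the deviations of same-numbered LPS and mock libraries correlated at 0.227 to 0.685 at all 6 times. The main fit had no replicate term, so its standard errors also hold the difference between replicate numbers. The late standard error without and with the block was 0.43 and 0.17 for Uqcrc1, 0.34 and 0.13 for Atp5b, and 0.17 and 0.16 for Ndufa11. The members and lists were chosen with earlier results of these data known. Other settings tried were a pseudocount of 0.1 or 5, a minimum of 10 TPM, no filter, rescaling, a replicate term, length and GC trends removed, and leaving out each library.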

Additional observations from a re-analysis of the deposited data

Results flagged for a closer look

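The effect of LPS differed between late and early times in 8 subunits by limma's test of the difference, late minus early, with adjusted p under 0.05. All 8 were lower late, and 8 of 55 is a smaller share than the 22.2% of all genes called lower. Ndufb10 had a difference of -0.93, with a late log2 fold change of -1.48 and an early one of -0.54. Ndufs7 had a difference of -0.86 (late -1.46, early -0.60) and Ndufa8 of -0.74 (late -1.24, early -0.50). Uqcr;Uqcr11 had a difference of -0.74 (late -1.04, early -0.29). For Atp5d it was -0.58 (late -0.69, early -0.10) and for Ndufv2 -0.57 (late -1.10, early -0.53). After median-ratio rescaling none of the genes named above was called (limma, adjusted p 0.112 to 0.324). Then 1 was lower late, Ndufa12, at -0.47 (limma, adjusted p 0.0455), and 1 was higher late, Ndufs3.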

How the results depend on the processing

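Counts of subunits depended on the scaling. In the order F test, 2 h, 4 h, 6 h, 9 h, 12 h, late and late minus early, median-ratio rescaling gave 10, 0, 0, 3, 7, 12, 17 and 1, with complex medians of -0.49, -0.23, -0.24, -0.16 and -0.15 for complexes I to V. With length and GC trends removed the counts, with 1 h after the F test, were 8, 1, 0, 1, 4, 4, 7, 12 and 3, and the medians were -0.40, -0.24, -0.19, -0.0714 and -0.15. Pseudocounts of 0.1 and 5 moved the complex I median to -0.90 and -0.84. Over all pairs of groups, not only LPS and mock of an hour, the deviations by replicate number correlated at 0.05 to 0.83. With the replicate block the counts were 50 for the F test, 16, 9, 24, 29 and 43 at 1 h, 2 h, 4 h, 6 h and 9 h, 26 for the early effect and 20 for late minus early. Its late calls of Uqcrc1, Uqcrfs1, Cox7a2, Atp5b, Atp5a1 and Atp5c1 and its counts for the regulators are given beside those results, and it changed no other late call of a named member. The block with length and GC trends removed, chosen after seeing the data, gave 5, 0, 4, 6 and 15 at 1 h to 9 h and 23 late. The block with rescaling, also chosen later, gave 14, 0, 3, 3 and 14. The complex medians were the same as without the block.

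Leaving out single libraries gave 27 to 37 for the F test, 0 to 9 at 1 h, 0 to 0 at 2 h, 4 to 5 at 4 h, 8 to 10 at 6 h, 12 to 28 at 9 h, 19 to 26 at 12 h, 39 to 46 late, 8 to 12 for late minus early and 0 to 0 for mock cells. Medians ranged from -0.93 to -0.84, -0.82 to -0.45, -0.70 to -0.59, -0.60 to -0.50 and -0.67 to -0.46 for complexes I to V. Footprint counts ran from 1 to 21 higher and 1 to 19 lower.

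Of the named members, late values changed sign under rescaling, with or without the block, for Ndufs3 (0.24), Uqcrc2 (0.12), Cox7a2 (0.11), Cox6c (0.22), Atp5j (0.13) and Ndufa7 (0.0019). With length and GC trends removed, with or without the block, they were 0.32, 0.0113, 0.20, 0.23, 0.25 and 0.17, and Atp5e was 0.11. Ndufs4 was -0.0029 without LPS 6 h replicate 2, -0.0032 without mock 9 h replicate 1, -0.0193 without LPS 9 h replicate 2, -0.0170 without mock 12 h replicate 1 and -0.0532 without LPS 12 h replicate 2, and at most 0.0682, without LPS 12 h replicate 1. The cause of these changes was not tested. Over 31 named members and 651 values, 553 kept their direction and side of the threshold.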
